A study of Mus musculus with 18 samples.

Results

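The mouse autosomes were read as 100 kb tiles, and the regions described here were the 2008 tiles that held the most CpG methylation once Dnmt1 had been deleted for 9 to 11 days. Of 24010 autosomal tiles with a call, 20077 were eligible, with at least 70% methylation in pooled control cells of days 1 to 9 and at least 500 calls in the pooled Dnmt1 KO libraries of days 9 and 11. Members were the top 10% of these by methylation in that same Dnmt1 KO pool, called the plateau level here because the median tile no longer fell after day 6. Each call is a sequenced cytosine of a CpG that resisted bisulfite (methylated) or was converted (unmethylated), and the level of a tile is the percent of its calls that were methylated.

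DNMT1 is the maintenance methyltransferase: it copies methylation onto the new strand after replication, so that cells that divide without it dilute the mark. DNMT3A and DNMT3B methylate DNA without a methylated template, and embryonic stem cells (ESCs) express both. Bodies of transcribed genes are a known target of DNMT3B, while promoters rich in CpGs are usually kept free of the mark.

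The 18 whole-genome bisulfite libraries came from mouse ESCs grown in medium with serum and LIF, 9 labelled control (genotype wild type) and 9 labelled Dnmt1 KO, at days 1, 3, 6, 9 and 11. Replicates, described as biological, numbered 2 per genotype and day, except for 1 library per genotype at day 6. The Dnmt1 gene was flanked by loxP sites and deleted by a Cre that 4-hydroxytamoxifen switches on. E14 was the labelled background of every library but the methods call the floxed cells C57BL/6, so a difference between cell lines and the deletion cannot be told apart in any comparison of Dnmt1 KO with control. Over exons 4 to 5 of Dnmt1 (chr9:20744920-20746027, NCBIM37) control libraries held 2 to 18 calls, 1 Dnmt1 KO library of day 1 held 2, and the other 8 held 0, which allows up to 3 calls in each. Depth was shallow, from 7190722 to 11158414 calls per library and 1.202 to 1.253 calls per listed cytosine, so levels were summed over tiles and single CpGs were not compared.

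The following stretches come from the first 3 of the 10 tiles with the highest plateau, followed by 1 from the tile with the lowest plateau of all eligible tiles. Each is the 200 bases of its tile with the most Dnmt1 KO calls of days 3 and 6. Choosing by calls favours clusters of CpGs, so the stretches are richer in CpGs than their tiles and do not stand for them. The 3 member tiles held 1359, 1536 and 1593 CpGs in 100 kb. All stretches are intronic and from the NCBIM37 plus strand, with CpGs in capitals.
Crim1, chr17:78737971-78738170: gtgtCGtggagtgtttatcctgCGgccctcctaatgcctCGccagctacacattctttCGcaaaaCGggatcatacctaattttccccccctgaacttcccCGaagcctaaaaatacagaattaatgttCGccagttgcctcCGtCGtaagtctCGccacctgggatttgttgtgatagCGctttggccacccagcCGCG
Wwox, chr8:117331881-117332080: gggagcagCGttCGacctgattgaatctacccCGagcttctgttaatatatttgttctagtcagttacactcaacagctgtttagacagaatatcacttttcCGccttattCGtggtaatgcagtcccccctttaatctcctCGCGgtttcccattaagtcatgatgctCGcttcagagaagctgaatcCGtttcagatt
Wwox, chr8:117061131-117061330: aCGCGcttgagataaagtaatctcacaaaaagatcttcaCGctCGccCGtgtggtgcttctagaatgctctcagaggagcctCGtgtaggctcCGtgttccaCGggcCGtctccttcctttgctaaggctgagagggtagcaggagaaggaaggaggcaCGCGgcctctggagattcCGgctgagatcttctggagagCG
Cntnap2, chr6:45093851-45094050: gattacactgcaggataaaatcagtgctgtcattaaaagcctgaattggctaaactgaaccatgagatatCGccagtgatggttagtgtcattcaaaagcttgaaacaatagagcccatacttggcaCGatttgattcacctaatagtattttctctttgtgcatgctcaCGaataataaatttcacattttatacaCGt
The Crim1 stretch held 13 CpGs, and 19 of its 28 Dnmt1 KO calls of days 3 and 6 were methylated (67.9%), beside 16 of 17 in control. In the Wwox stretches, with 9 and 13 CpGs, 23 of 38 (60.5%) and 35 of 41 (85.4%) Dnmt1 KO calls were methylated, the latter with no control call to set beside it. The Cntnap2 stretch held 4 CpGs, with 3 of 10 Dnmt1 KO calls methylated (30.0%) and all 3 control calls. Between 2 and 3 libraries gave the Dnmt1 KO calls of a stretch, and calls of 1 read are not independent, so these counts illustrate the sequence and are no test.

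Plateau levels of the members ran from 31.9% to 45.8% with a median of 34.2%, against a median of 22.5% in the 18069 other eligible tiles. Members were chosen by these values, the pooled Dnmt1 KO levels of days 9 and 11, which are given as a description. The last 3 tiles inside the limit stood at 31.915%, 31.908% and 31.906%, and the first 3 outside it at 31.905%, 31.903% and 31.902%, so the limit divides a continuous range. As a share of the pooled control level, the median member kept 41.1% and the median eligible tile 29.6%. The 2008 tiles at the other end, called the lowest tiles here, lay between 5.37% and 13.8%. Members held more calls per tile than the rest, with a median of 1610 plateau calls against 1078 in all eligible tiles and 637 in the lowest tiles. They also held more CpGs, with medians of 1067, 725 and 458, so this is no measure of deeper reading per CpG.

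Methylation of the members fell with the rest of the genome but fell less far. In Dnmt1 KO, the median member stood at 76.9% and 77.6% in the libraries of day 1, 41.2% and 42.6% at day 3, and 33.6% at day 6. The median of the other tiles in those libraries was 73.3% and 74.1%, then 32.5% and 34.0%, then 22.0%. The gap thus went from 3.50 to 3.68 percentage points at day 1 to between 8.62 and 8.68 at day 3 and 11.6 at day 6. At days 9 and 11, which the choice of members used, the median member stood between 34.2% and 35.0% and the median lowest tile between 11.18% and 12.60%. In the 9 control libraries the median member was higher than the median of other tiles by 2.85 to 3.49 points, in every library. The plot of median tiles by day shows this course.

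**Figure D1:**
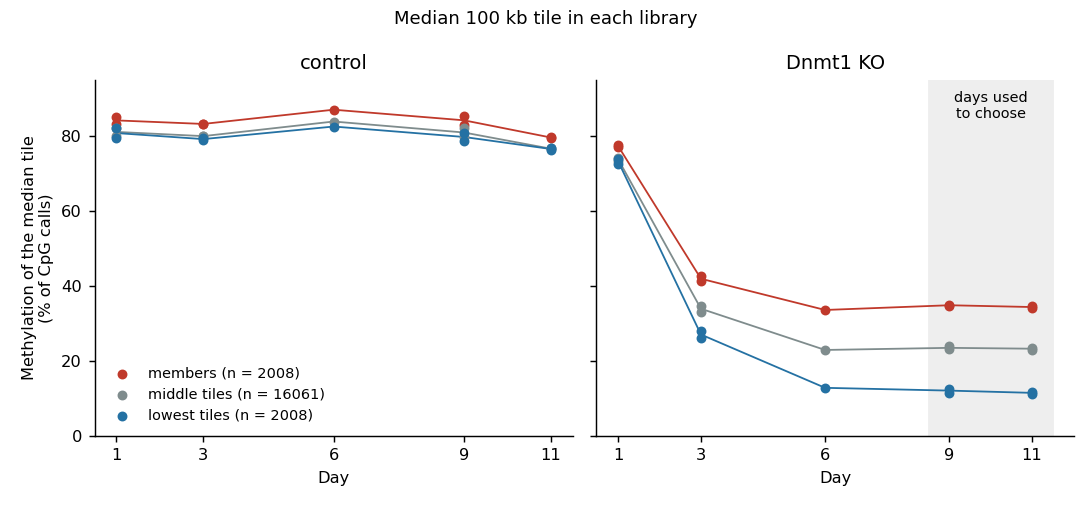
Methylation of the median 100 kb tile (percent of CpG calls) by day in control (left) and Dnmt1 KO (right); each point is 1 library and lines join the means of a day. Members stood at 33.6% in Dnmt1 KO at day 6 against 12.8% for the lowest tiles, while in control the same groups stood at 87.0% and 82.5% at day 6.

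Genes overlapped most of the 10 tiles with the highest plateau, and some of these lay wholly inside 1 protein-coding gene. First came chr17:78700001-78800000, over Crim1, which encodes a transmembrane protein that binds BMPs, and its neighbour Fez2, with a plateau of 45.8% (1667 calls, 95% exact interval 43.4 to 48.2, for counting error only). Its Dnmt1 KO libraries read 76.3% and 83.1% at day 1, 49.7% and 51.9% at day 3, 41.4% at day 6, 44.0% and 44.2% at day 9, and 45.3% and 49.3% at day 11. Control libraries read 80.3% to 92.4%, so every Dnmt1 KO library from day 3 on lay below every control library. Wwox, an oxidoreductase gene that spans a chromosomal fragile site, held the next 2 tiles, chr8:117300001-117400000 and chr8:117000001-117100000, at 45.6% and 45.3%. The first of these read 52.8% and 47.5% at day 3 and 43.7% at day 6. The second read 50.7% and 49.4% at day 3 and 49.3% at day 6, then 41.1% and 40.3% at day 9 and 49.7% and 49.0% at day 11, so the libraries of day 9 were its lowest and those of day 11 were back near the level of day 3.

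The fourth was a tile of Fndc3b (chr3:27300001-27400000, 44.8%) and one of Tiam1, which activates the GTPase Rac (chr16:90000001-90100000, 44.5%). Then came a tile over Fkbp7, Plekha3 and part of Ttn, the gene for the muscle protein titin (chr2:76500001-76600000, 43.9%). Sox5, a transcription factor of cartilage and neurons (chr6:144000001-144100000), stood at 43.7%, and the protein kinase C gene Prkce (chr17:86700001-86800000) at 43.4%. The list closed with Auh, an enzyme of leucine breakdown (chr13:52900001-53000000, 43.3%), and chr7:143900001-144000000 (43.3%), which no annotated gene touches. In these 10 tiles, day 6 levels ran from 37.5% in the Sox5 tile to 49.3% in the second Wwox tile, all above the 22.0% of the median other tile. Replicates differed by several points: the Sox5 tile read 35.7% and 48.3% in the libraries of day 11.

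**Figure D2:**
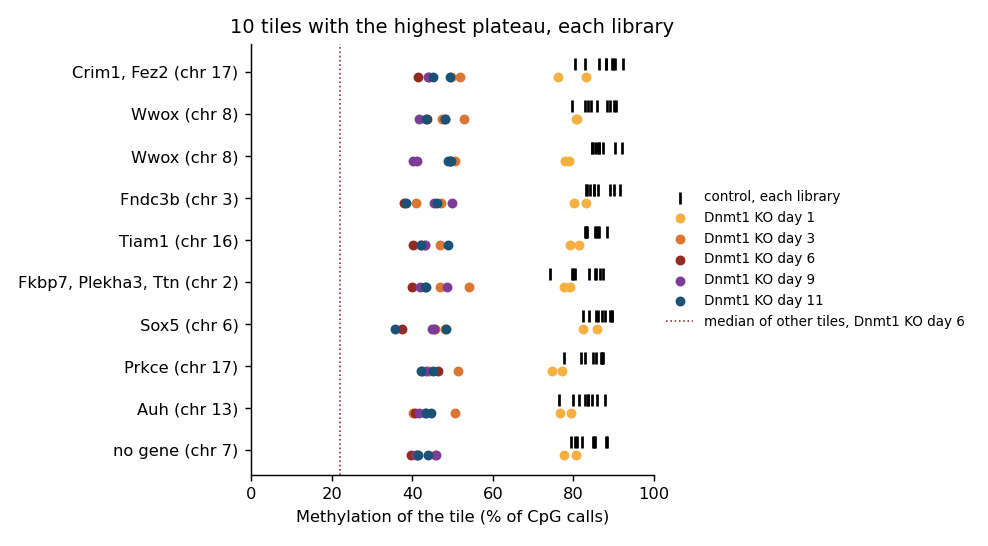
Methylation (percent of CpG calls) of the 10 tiles with the highest plateau, named by the genes that overlap them; ticks are control libraries, points Dnmt1 KO libraries coloured by day, and the dotted line is the median of other tiles in Dnmt1 KO at day 6 (22.0%). From day 3 on, the Dnmt1 KO libraries of these tiles lay between 35.7% and 54.0%, right of the line and left of their control values.

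Days 3 and 6 of Dnmt1 KO had no part in the choice and show how well the choice carried over. Each tile was read as points above or below the median eligible tile of its library, and tested with limma over 14 libraries, without those of Dnmt1 KO days 9 and 11. All 2008 members had at least 20 calls in each of the 14 and were tested. Of them 1889 (94.1%) were called higher than the median tile at days 3 and 6 (adjusted p under 0.05), where 21.4% of all tested tiles were, and 0 were called lower, beside 19% of all tiles. The median member stood 9.17 points above the median tile, with a median standard error of 1.77 points, and 2006 lay above it. In the lowest tiles 1699 (84.6%) were called lower and 0 higher, with a median of -8.40 points. At day 6 alone, which rests on 1 library assumed to vary like the others, 1453 members (72.4%) were called higher beside 11.4% of all tiles, and 0 lower beside 7.24%. Against tiles with a like number of CpGs that day 6 count was 79 (3.93%, beside 0.453%).

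**Figure D3:**
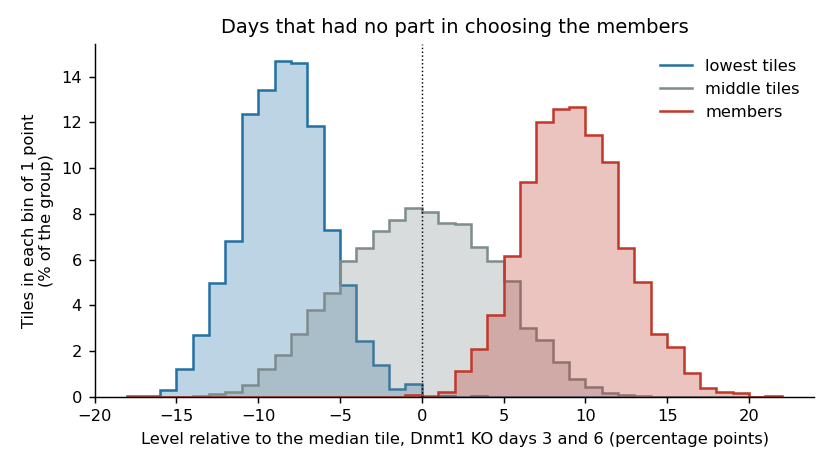
Share of tiles (percent of each group, bins of 1 point) by level relative to the median tile in Dnmt1 KO at days 3 and 6. Members centred at 9.17 points and the lowest tiles at -8.40, on days that did not choose them, and the middle tiles overlap both.

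The second Wwox tile had the largest value, 21.2 ± 1.52 points (SE; limma adjusted p = 6.5e-08). Next were a tile of Prkce (chr17:86600001-86700000, 19.6 ± 1.93), one of Gpatch2 (chr1:189100001-189200000, 19.3 ± 1.74), one of Ifltd1 (chr6:145400001-145500000, 19.04 ± 1.77) and the Prkce tile named above (18.6 ± 1.75). At the other end, chr11:105100001-105200000, over Tlk2 and Mrc2, stood at -0.44 ± 1.91 points and chr17:88200001-88300000, with no gene, at -0.14 ± 2.02. These were the 2 members not above the median tile. The Tlk2 and Mrc2 tile read 31.7% and 34.4% at day 3 and 22.9% at day 6, and then 25.7%, 38.7%, 31.0% and 35.9% in the libraries of days 9 and 11, so its day 9 replicates lay on either side of the member limit. Tiles of Ap1s3 and Wdfy1 (1.12 ± 1.82), Usp31 (1.25 ± 2.02) and Arhgap22 (1.38 ± 1.80) completed the 5 smallest, none of them called.

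In a quasi-binomial test of the calls, 2008 members (100%) were called lower than control by at least 10 points at day 3 and again at day 6, as were 100% of all tiles on each day. The test fitted tile percents with limma, with weights that follow the quasi-binomial variance of the calls. Day 6 set 1 library against 1, with the spread taken from the groups that had replicates. Tiles were eligible through a high level in control libraries that included those of days 3 and 6, so this count is not independent of the rule and says nothing particular to the members. The median difference from control was -40.8 points at day 3 and -52.9 at day 6 in members, and -45.8 and -61.3 in the other tiles. Read with limma as Dnmt1 KO minus control over days 3 and 6, 904 members (45%) were called with a smaller loss in points than the median tile, beside 14.6% of all tiles. The other way, 0 members were called (6.1% of all tiles). Called or not, 1981 members lay on the side of a smaller loss, beside 9165 of the 18069 other tiles. The median over all members was 6.72 points less. From day 3 to day 6 the member median of this loss relative to the median tile moved by 2.90 points and that of other tiles by -0.30, but no member's change between these days passed limma's adjusted p of 0.05 (1 of 20077 tiles passed; unadjusted, 112 of 2008 members and 918 of 20077 tiles were under 0.05).

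Members held more CpGs than other tiles, and taking this into account changed what the comparison showed. Set against the mean of tiles with a like number of CpGs (20 bins), 1033 members (51.4%) were still called higher at days 3 and 6, beside 9.36% of all tiles. The median member stood 5.37 points over that mean, which includes the members themselves and is raised by them. All values against tiles of like CpG number were read in this way. The smaller loss in points was no longer called by limma in any member (0 of 2008, 99 under 0.05 unadjusted, median 0.80 points), and in 1 tile of all 20077 (0.00498%). Against tiles of like CpG number, members were also higher in control by a median of 4.82 points at days 3 and 6. On a log2 scale, where a loss is a ratio to control of the same days, 1964 members (97.8%) were called with a smaller loss than the median tile, beside 33.1% of all tiles. With both the log2 scale and like CpG number, 1056 (52.6%) were so called, beside 18.2%. When tiles needed at least 1000 calls and members were chosen again, 899 of 1103 (81.5%) were called higher, beside 15.8% of the tiles then tested. In that setting 7 (0.635%, beside 0.245%) were called with a smaller loss in points, and the median over all its members was 3.92 points. In points, then, the loss was called smaller than that of the median tile in 45% of members, but this share moved with the settings, to 0.635% at the higher call minimum, 14.5% with tiles of 50 kb (beside 3.88% of all tiles), 72.8% with tiles of 200 kb (beside 27.6%) and 76.4% with at least 80% in control (beside 15.7%). The loss in points was not shown to differ from that of tiles as rich in CpGs, whereas as a ratio it was called smaller for more members than the background in either reading.

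Members were rich in CpGs. The median member held 1067 CpGs (middle 50% of members 947 to 1215), the median eligible tile 725 and the median lowest tile 458. GC content followed, at 44.6%, 40.9% and 36.9%, and so did the ratio of observed to expected CpGs, at 0.216, 0.174 and 0.134. When tiles were sorted by CpG number into 10 groups of about equal size, 0.0498% of the poorest group (113 to 459 CpGs) were members, 27.3% of the group with 1058 to 1215 CpGs, and 501 of 2002 tiles of the richest. Across all 20077 tiles, Pearson's r between CpG number and the level in Dnmt1 KO was 0.48 at day 3 and 0.65 at day 6. This is a description over tiles that share libraries and whose call number varies with their CpG number. Within each of the 4 richest groups, members stood above other tiles at day 6, for example 34.2% against 26.1% in the group of 1058 to 1215 CpGs. Part of this gap was there in control. Against tiles of like CpG number, members were higher in control at days 3 and 6 by a median of 4.82 points. Their loss was smaller by a median of 0.80 points, with 0 members called.

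**Figure D4:**
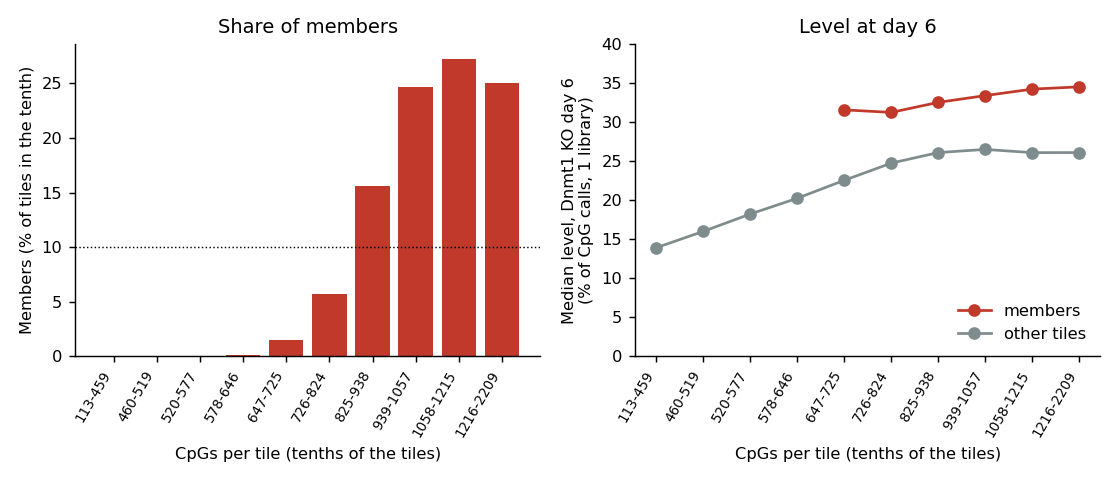
Left, members as percent of tiles in 10 groups of tiles sorted by CpGs per tile, with the 10% of the rule dotted; right, median day 6 level in Dnmt1 KO (percent of CpG calls, 1 library) of members and other tiles in the same groups, members drawn where at least 20 fell in a group. Members were scarce under 726 CpGs, and above that stood 6.43 to 8.42 points over other tiles of the same group. Control is not drawn, where members were a median of 4.82 points above tiles of like CpG number at days 3 and 6.

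CpGs were also classed by the CpGs within 250 bases on either side as sparse (under 10), intermediate, or dense (25 or more), the last being typical of CpG islands. Of the calls in members, 73.9% were sparse, 25.3% intermediate and 0.810% dense, against 81.8%, 15.7% and 2.46% in other tiles. In the lowest tiles 0.735% were dense, so a low dense share was found at both ends of the range. CpG islands themselves were not counted. In Dnmt1 KO at day 6, sparse CpGs read 33.2% in members and 23.1% in other tiles, intermediate CpGs 36.6% and 27.1%, and dense CpGs 10.2% and 4.62%. The gap was present in each class. In control at day 6 the same classes read 87.3% and 84.9%, 85.9% and 78.1%, and 26.9% and 13.1%, so members were higher in control too in each class. For dense CpGs the gap in points was larger in control than in Dnmt1 KO. For sparse and intermediate CpGs it was larger in Dnmt1 KO.

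**Figure D5:**
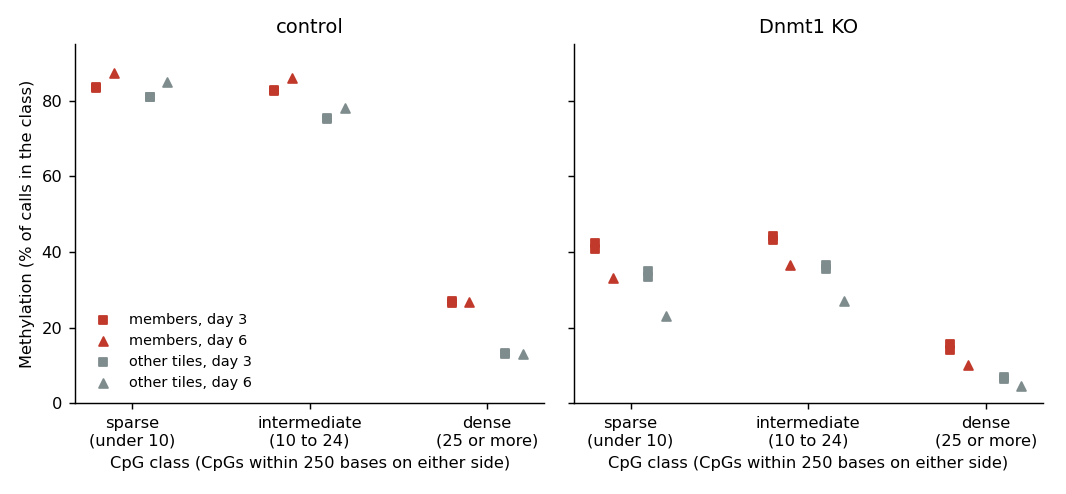
Methylation (percent of calls) of sparse, intermediate and dense CpGs in members and other tiles at days 3 and 6, control left and Dnmt1 KO right, each point 1 library. In Dnmt1 KO, members lay above other tiles in every class and library shown, for example 33.2% against 23.1% for sparse CpGs at day 6.

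Members were also gene bodies more often than other tiles. Annotated genes covered a median of 83.1% of a member and 24.5% of an eligible tile, and 733 members (36.5%) lay wholly inside 1 protein-coding gene, against 16.4% of eligible tiles. Promoters were few: 1609 members (80.1%) held no start of a protein-coding gene, against 64.8% of eligible tiles and 85.4% of the lowest tiles, so this was shared with the other end of the range, and 500 of 11747 such starts in eligible tiles fell in members. In calls, 59.6% of those in members were intronic and 5.59% exonic, against 39.3% and 6.30% in other tiles. Introns read 34.3% in members and 24.8% in other tiles in Dnmt1 KO at day 6, exons 34.7% and 23.2%, and sequence between genes 32.9% and 22.2%, so members were also higher outside genes. In control at day 6, introns read 86.7% and 82.4%, exons 84.3% and 72.1%, and sequence between genes 86.3% and 83.0%. Members were thus higher in control too in each part, and in exons by about as much as in Dnmt1 KO.

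Gene cover and CpG number were then read together. Among tiles with at least 1000 CpGs, 446 of 751 tiles inside 1 protein-coding gene were members (59.4%), as were 182 of 388 with no gene (46.9%) 251 of 1480 with genes over less than 50% of the tile (17.0%) and 265 of 1775 with genes over 50% to 90% (14.9%). Under 800 CpGs, 39 of 1894 tiles inside 1 gene (2.06%) and 36 of 4963 with no gene (0.725%) were members. Tiles of at least 1000 CpGs that were partly covered had a lower control level, with medians of 77.4% (under 50% covered) and 76.4% (50% to 90%) against 83.1% in those inside 1 gene and 82.4% in those with no gene. In this class the share of tiles that were members was thus higher in tiles inside 1 gene or with no gene than in tiles partly covered by genes.

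Along the chromosomes, members gathered in runs and toward the distal ends. The last 10% of chromosome length had 522 members among 1976 tiles (26.4%), the first 10% had 57 among 1587 (3.59%). Mouse autosomes are acrocentric, so the first part lies next to the centromere. Median CpG number rose in the same direction, from 647 to 993 per tile, and its part in this was not tested. By chromosome, the share of members ran from 6.95% on chromosome 16 to 16.8% on chromosome 17. Of the eligible neighbours of members, 45.6% were members too, against 7.09% of the neighbours of middle tiles. There were 1171 runs of adjacent members, of which 786 were single tiles and 57 had 5 or more.

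The longest run had 18 tiles, chr8:120100001-121900000, over Cdh13, which encodes T-cadherin, and Plcg2, Hsd17b2 and others. Pooled over the run, its Dnmt1 KO libraries read 77.8% and 77.7% at day 1, 42.1% and 44.5% at day 3, 35.1% at day 6, 34.5% and 34.2% at day 9, and 34.0% and 35.5% at day 11, from 7952 to 12888 calls each. The libraries of days 6 to 11 thus all lay between 34.0% and 35.5%. Of its 18 tiles, 16 were called higher at days 3 and 6. A run of 14 tiles, chr12:107800001-109200000, took in Bcl11b, a transcription factor of T cells, and gene-poor sequence beside it, and read 38.5% at day 6. The run of 13 at chr19:55900001-57200000, from Tcf7l2, an effector of Wnt signalling, to the actin-binding Ablim1, read 36.02%. Rbms3, an RNA-binding protein, and Zcwpw2 overlapped the run of 12 at chr9:116700001-117900000 (36.1%), and Sox5 that of 11 at chr6:143200001-144300000 (36.5%). Every tile of these last 4 runs was called higher at days 3 and 6. Among all members 94.1% were called higher on these days, beside 21.4% of all tiles. The counts in the runs are thus not read as particular to the runs.

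Inside the tiles the higher level was spread out. Cut into pieces of 10 kb with at least 20 calls in Dnmt1 KO at days 3 and 6, members had a median piece of 38.8%, against 29.8% over all eligible tiles, and 87.7% of their pieces lay above that median, against 49.7% in middle tiles. In 1987 of the 2007 members with at least 5 pieces (99.0%) most pieces were above it, and in 626 every piece was, beside 6879 (42.8%) and 190 of 16057 middle tiles.

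At day 1 of Dnmt1 KO, 240 members (12%) were called higher than the median tile by limma, beside 2.45% of all tiles, and 9 lower (0.448%, beside 9.31%), with a median of 3.16 points. Against tiles of like CpG number the count was 545 (27.1%, beside 4.2%) and the median 4.76 points. Control day 11, which had no part in the rule, gave 264 members called higher (13.1%, beside 4.17% of all tiles) and 39 lower (1.94%, beside 15.7%), with a median of 2.74 points. Against tiles of like CpG number it gave 867 (43.2%, beside 7.28%) and a median of 5.57 points, about as large as the 5.37 points of Dnmt1 KO at days 3 and 6 in that reading. The median difference of Dnmt1 KO from control at day 1 was -6.67 points in members and -7.13 in other tiles. Against control, 207 members (10.3%) had lost at least 10 points at day 1 in the quasi-binomial test, beside 18.7% of all tiles. That count turned on single libraries of day 1. Leaving out the first control replicate gave 133 members (6.62%, beside 6.38% of all tiles), and leaving out the second gave 439 (21.9%, beside 29.1%). Leaving out the first replicate of the deleted cells gave 119 (5.93%, beside 5.9%), and leaving out the second gave 173 (8.62%, beside 8%). The share of members was therefore below the background with all libraries and in 1 of these 4 fits, and close to it in the other 3.

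Gene families and gene sets were read by the tiles that hold a start of their genes. Of all 7059 eligible tiles with a start of a protein-coding gene, 399 (5.65%) were members, 15.4% were called higher at days 3 and 6 and 12.1% lower. Eligible tiles with starts of olfactory receptor genes, large clusters of sensory receptors, numbered 297, of which 0 were members and 73 (24.6%) were among the lowest tiles, beside 4.15% of tiles with a gene start. By the test at days 3 and 6, 143 of them (48.1%) were called lower. Vomeronasal receptor genes, which sense pheromones, gave 0 members of 141 tiles and 58 called lower (41.1%). Of 25 tiles with keratin genes, 9 (36%) were called higher and 0 were members. Zinc finger genes had 3 members of 128 tiles, those of Zfp366, Zfp957 and Zfp618, and cytochrome P450 genes 1 of 48, that of Cyp2u1. The Zfp618 tile was not called higher at days 3 and 6 (4.49 ± 2.03 points, limma adjusted p = 0.082). Ribosomal protein genes (7 tiles), proteasome subunits (12), complex I subunits (10), spliceosome genes (12) and DNA replication genes (14) had 0, where a share of 5.65% would give less than 1 tile in each, so nothing is read from these counts. Most genes of those lists lie in tiles that were not eligible, as with 79 autosomal ribosomal protein genes of which 7 were in eligible tiles.

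Among 7 eligible tiles with genes of pluripotency, 1 was a member, that of Prdm14, which guards the naive state and germ cell fate. The Prdm14 tile (chr1:13100001-13200000) read 46.6% and 39.6% at day 3 and 32.6% at day 6 of Dnmt1 KO, against 78.2% and 79.5% in control at these days. It stood 9.38 ± 1.85 points over the median tile (limma adjusted p = 0.00063). Of 7 tiles with DNA methylation genes, 1 was a member, that of Tet3, a dioxygenase that oxidises methylated cytosine (chr6:83300001-83400000). The Tet3 tile read 37.3% and 42.4% at day 3 and 32.6% at day 6, 7.81 ± 1.76 points over the median tile (limma adjusted p = 0.0018). Genes for H3K36 methylation, whose trimethylated form recruits DNMT3B to gene bodies, had 0 members of 3 tiles. Lists of 7 and 3 tiles are too small for their member counts to be read. Expression was not measured in these libraries, so whether the genes over the members were transcribed was not analysed here.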

How the data were processed

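Per the labels and methods, the authors trimmed paired reads, aligned them with Bismark (0.12.3 in the submitters' processing notes) to NCBIM37, removed duplicates and deposited, per cytosine and strand, counts of methylated and unmethylated calls and a percent. The deposited percent served only as a check of the counts. Cytosines over 20 calls in any library were dropped, and the rest were summed into 100 kb tiles. Groups and replicate numbers came from the labels. Levels in percent, less the library's median over eligible tiles, were fitted with limma 3.58.1 (R 4.3.3; 1 mean per genotype and day, spread moderated with a trend on calls, two-sided, Benjamini-Hochberg over 20077 tiles). Dnmt1 KO against control used limma on the percents without the median taken out, weighted by the quasi-binomial variance of the calls. This is called the quasi-binomial test here. Sequence and GENCODE vM1 gene models were of the same build. Repeats were not analysed here.

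Named tiles were the 10 highest, those at the limit, the 5 longest runs and the 5 largest and 5 smallest values at days 3 and 6, with the genes that overlap them as annotation, and for gene lists up to 4 genes whose start lies in a member. Members and lists were chosen with earlier results of these data known. Libraries were not treated as paired by replicate number. Correlations between groups of the tile differences between replicates lay between -0.0224 and 0.0105. Library medians had been taken out and tile levels carry counting error, so these cannot show whether the numbers paired libraries. Alternatives covered the cytosine filter, call minimum, tile size, share chosen, background and scale. Each library that had a replicate was also left out in turn, from the fit or from the choice of members. The lone libraries of day 6 were always kept.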

Additional observations from a re-analysis of the deposited data

How the results depend on the processing

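No difference from the median tile or from control reversed its direction under the alternatives run, but the day 1 loss, read as the share of members beside that of all tiles (10.3% beside 18.7%), turned slightly in 3 fits given with that result. With all settings as reported, 1889 of 2008 members were called higher at days 3 and 6 (94.1%, beside 21.4% of all tiles) and 904 were called with a smaller loss (45%, beside 14.6%). For the top 5% these were 990 and 585 of 1004 (98.6% and 58.3%, same background), and for the top 20% 3171 and 1453 of 4015 (79% and 36.2%). Tiles of 50 kb gave 3130 and 568 of 3929 (79.7% beside 16.1%, and 14.5% beside 3.88%), and tiles of 200 kb 1031 and 754 of 1036 (99.5% beside 26%, and 72.8% beside 27.6%). At least 80% in control gave 1252 and 976 of 1278 (98% beside 28.3%, and 76.4% beside 15.7%), and at least 1000 calls 899 and 7 of 1103 (81.5% beside 15.8%, and 0.635% beside 0.245%). Numbers of members differ between these settings by construction. The median over the median tile (9.17 points) was 10.8 for the top 5%, 7.34 for the top 20%, 7.48 with at least 1000 calls, and 7.02 against tiles of like control level. Against tiles of like CpG number, chosen after seeing the data as were the log2 scale and the choices below, the values were 1033, 0 and 5.37 points. On the log2 scale 1964 were called with a smaller loss. With members chosen without 1 of the plateau libraries, 524 to 597 of 1675 to 1765 were called with a smaller loss, 31.2% to 33.8% beside 10.1% to 11.3% of all tiles (533 without day 9 replicate 1, 597 without replicate 2, 557 without day 11 replicate 1 and 524 without replicate 2). With 1 plateau library fewer, fewer tiles reached the call minimum. The effect of the left-out library and that of the stricter minimum cannot be told apart here. Leaving out in turn each fitted library that had a replicate gave 119 to 439 members lower at day 1. The lone libraries of day 6 were not left out. A replicate block gave 1876, 872, 2008 (day 3) and 207 (day 1), against 1889, 904, 2008 and 207 without it. Whether the replicate numbers pair libraries is not known. Where no cause is named, the cause was not tested.

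Coverage near 1 call per cytosine limits all values to tiles or larger sums. Day 6 had 1 library per genotype. Tile levels of 1 library carry a counting error of several points.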
